A study of Mus musculus with 16 samples.

Results

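Asns, Aldh18a1, Pycr1, Got1, Gpt2, Chac1, Vldlr, Ddit4 and Eif4ebp1 are 9 genes known as targets of the transcription factor ATF4 that encode enzymes and effectors of the amino acid stress response. They were chosen by name, as the genes of asparagine, proline and alanine synthesis and a few other effectors. Earlier results of these data were known when this set and the lists of other genes below were chosen. Counts of these genes called are therefore a description and not an independent test. The set holds 9 of the 17159 genes in the deposited table of depth-normalized reads. All 9 passed the filter on low values. CD8+ T cells of the mouse strain C57BL/6 were stimulated through CD3 and CD28 for 2 days and spent a further 36 h in 1 of 4 media, with 4 libraries per medium and 16 in all. The media were fresh medium lacking methionine (methionine-free fresh medium), fresh medium containing it (complete fresh medium), medium conditioned by B16F10 cells, a mouse melanoma line (supernatant), and that conditioned medium with methionine added back (supplemented supernatant). All groups shared the strain, the sort of T cell, the stimulation and the time in medium. Whether the 4 libraries of a medium came from separate animals or cultures is not given in the sources used here, so the p-values measure the spread between libraries. The question for these genes was whether they were higher in supplemented supernatant than in the other media.

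ATF4 is a basic leucine zipper factor whose own mRNA is translated preferentially when the initiation factor eIF2 is phosphorylated. The kinase GCN2 (Eif2ak4) phosphorylates eIF2 when uncharged tRNA accumulates, and the kinase PERK (Eif2ak3) does so under stress in the endoplasmic reticulum. With C/EBP partners, ATF4 binds composite elements at genes for amino acid synthesis, amino acid uptake, tRNA charging and glutathione metabolism, and in activated T cells the same genes are part of the growth response.

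The composite element is shown because several genes of the set hold it near their start. The sequence itself was not used to choose them. They were chosen as known ATF4 targets, however, so their share below is not independent of that choice. The core TGATGNAA was searched on both strands in RefSeq promoters (build GRCm38.p6) that run from 250 bases before each annotated start to 50 bases after it. Of the 9 genes, 8 matched the promoter table by symbol, and 5 of these 8 (62.5%) held the core. It occurred in 1219 of 27025 genes (4.51%) and in 1304 of 32851 promoters (3.97%). It also occurred in 9 of 25 other ATF4 target genes (36.0%) and 3 of 14 ATF4 pathway regulators (21.4%) of the lists used below. None of the 18 partner and relative genes described below that have a promoter in the table held it. The windows below hold 30 bases each and read 5′ to 3′ along the strand of the gene, with the core or its reverse complement in capitals.
Asns: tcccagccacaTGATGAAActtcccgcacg
Pycr1: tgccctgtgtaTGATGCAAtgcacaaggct
Got1: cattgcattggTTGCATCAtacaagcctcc
Chac1: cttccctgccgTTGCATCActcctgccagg
Vldlr: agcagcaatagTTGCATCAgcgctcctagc
The Asns window lies at chr6:7693214-7693243 on the minus strand, and its core begins 23 bases before the RefSeq start. The GENCODE span of Asns given below reaches 7693254, so this window lies inside that span. The Pycr1 window lies at chr11:120643833-120643862 on the minus strand, with the core 103 bases before the start. The Got1 window at chr19:43524689-43524718, also on the minus strand, carries the reverse complement 102 bases before the start. Chac1 (chr2:119351038-119351067) and Vldlr (chr19:27216809-27216838) lie on the plus strand and carry the reverse complement 193 and 200 bases before the start. For Vldlr this is the second of its annotated starts, and the promoter of the other start held no match. The GENCODE span of Vldlr given below begins at 27216484, so its window also lies inside the span. Got1, Chac1 and Vldlr therefore share the same 8 letters, and Pycr1 carries them in the other orientation. The windows of Aldh18a1, Gpt2 and Ddit4 held no match, which says only that these letters are not in those 300 bases.

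In GRCm38 with the GENCODE M21 annotation, the genes lie on several chromosomes. Asns spans chr6:7675169-7693254, Pycr1 chr11:120635712-120643769 and Ddit4 chr10:59949669-59951834, all on the minus strand. Aldh18a1 (chr19:40550257-40588463) and Got1 (chr19:43499752-43524605) are on the minus strand and Vldlr (chr19:27216484-27254231) is on the plus strand of the same chromosome. Gpt2 (chr8:85492576-85527560), Eif4ebp1 (chr8:27260329-27276674) and Chac1 (chr2:119351229-119354381) are on the plus strand. The annotation places 1 other gene over any of them, the processed pseudogene Gm15801, which overlaps Aldh18a1 by 522 bases on the same strand, so some Aldh18a1 reads may be uncertain.

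Reads recovered from the deposited values summed to 25.8 to 42.3 M per library over the genes given. Levels were summed over the 6 CD8 T cell marker genes with values, of 9 listed. The sums were 79400 to 81200 depth-normalized reads per library in methionine-free fresh medium and 89900 to 93900 in complete fresh medium. They were 91400 to 92500 in supernatant and 98600 to 106000 in supplemented supernatant. The genes did not all move the same way. In the same order of media, Cd3g averaged 4931, 15789, 5928 and 14891 reads, and Cd8a 30626, 24492, 37126 and 34719. The marker sums of other cells also moved with the media, though few genes carried several of the sums. Summed over its list in each library, the 4 CD4 T cell markers gave 3980 to 4120 reads in methionine-free fresh medium, 1980 to 2140 in complete fresh medium, 4100 to 4610 in supernatant and 3320 to 3610 in supplemented supernatant. In the same order, the 4 NK cell markers gave 2030 to 2240, 1430 to 1560, 3130 to 3300 and 2790 to 2910. The 5 B cell markers gave 778 to 966, 503 to 542, 731 to 858 and 363 to 385, and the 6 measured myeloid markers of 7 gave 210 to 276, 382 to 459, 245 to 272 and 185 to 252. The 6 measured melanoma markers of 7 gave 257 to 282, 103 to 134, 231 to 257 and 91 to 144, so their sum was not higher in the supernatant media than in methionine-free fresh medium. Of these melanoma markers, Tyrp1 was at 0 in every library of both fresh media, Dct in every library of complete fresh medium and Mlana in every library of supplemented supernatant. In the order of media used above, Zbtb7b, most of the CD4 T cell sum, averaged 3672, 1781, 3874 and 3208 reads. Cd4 itself averaged 163, 182, 172 and 137. Cd79b, most of the B cell sum, averaged 821, 511, 765 and 359. Of the NK cell markers, Eomes averaged 1258, 1009, 1839 and 2148 and Klre1 833, 376, 1275 and 443. Klrb1c averaged 24.6, 102, 55.3 and 253, and Ncr1 only 9.9, 5.51, 14.2 and 11.2. Among the myeloid markers Cd68 averaged 104, 328, 76.1 and 152, while Fcgr3 ran the other way at 71.5, 44.3, 90.6 and 30.2. The part of the other cell types in the results was not tested.

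Per transcript length, the genes of the set covered a wide range in these T cells. In complete fresh medium Ddit4 stood highest at 372 ± 59.7 FPKM (fragments scaled to transcript length and library size; SD, n = 4), followed by Eif4ebp1 at 161 ± 21.9 and Asns at 127 ± 5.48. Aldh18a1 at 67.5 ± 5.49 FPKM and Got1 at 51.0 ± 4.03 lay in the middle, and Gpt2 at 10.5 ± 1.34, Chac1 at 6.30 ± 0.606, Pycr1 at 4.55 ± 0.514 and Vldlr at 2.80 ± 0.450 were low. The proline enzyme genes thus differed widely in level, with Aldh18a1 well above Pycr1. In supplemented supernatant Asns had the highest mean at 300 ± 14.7 FPKM, followed by Eif4ebp1 at 263 ± 41.8 and Ddit4 at 209 ± 43.8. The SDs of neighbours in that order overlap, while those of Asns and Ddit4 do not. Vldlr was the lowest gene in all 4 media, at 0.19 ± 0.0412 FPKM in methionine-free fresh medium and 4.01 ± 0.776 in supplemented supernatant.

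**Figure D1:**
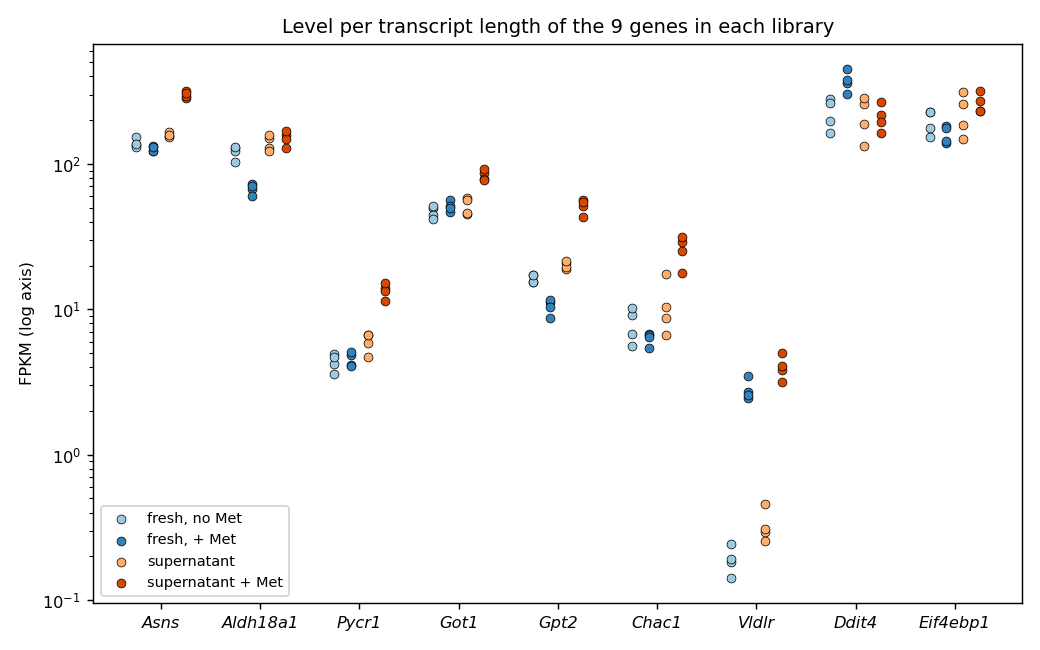
Level of each gene in each library, in FPKM on a log axis, with 4 points per medium. Asns, Pycr1, Got1, Gpt2 and Chac1 have their highest libraries in supplemented supernatant, while Vldlr falls below 1 FPKM in both media without added methionine and Ddit4 is highest in complete fresh medium.

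Levels from here on are depth-normalized reads per library. Fold changes are log2 of the level plus 1, with SE and the Benjamini-Hochberg adjusted p from limma over the 12469 genes tested, and a gene was called at an adjusted p below 0.05. In bulk RNA, fewer cells of a type and less RNA per cell cannot be told apart. Of the 9 genes, 8 were called higher in supplemented supernatant than in each of the other 3 media, against 12.5% of all genes tested. Ddit4 was the exception. In 6 of them (Asns, Pycr1, Got1, Gpt2, Chac1 and Vldlr) the lowest library of supplemented supernatant lay above the highest of the other 12 libraries, against 10.8% of all genes. The margin, the lowest library of supplemented supernatant divided by the highest of the other 12, was 2.29 for Gpt2, 2.26 for Chac1, 2.02 for Pycr1, 1.77 for Asns, 1.47 for Got1 and 1.29 for Vldlr. For Aldh18a1 it was 0.998 and for Eif4ebp1 0.98, so their groups touched. With reads rescaled by library totals, Aldh18a1 and Eif4ebp1 dropped out and the count of 8 became 6, and with quantile normalization it became 7. In the FPKM table it was 5, or 8 with the replicate number as a block.

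**Figure D2:**
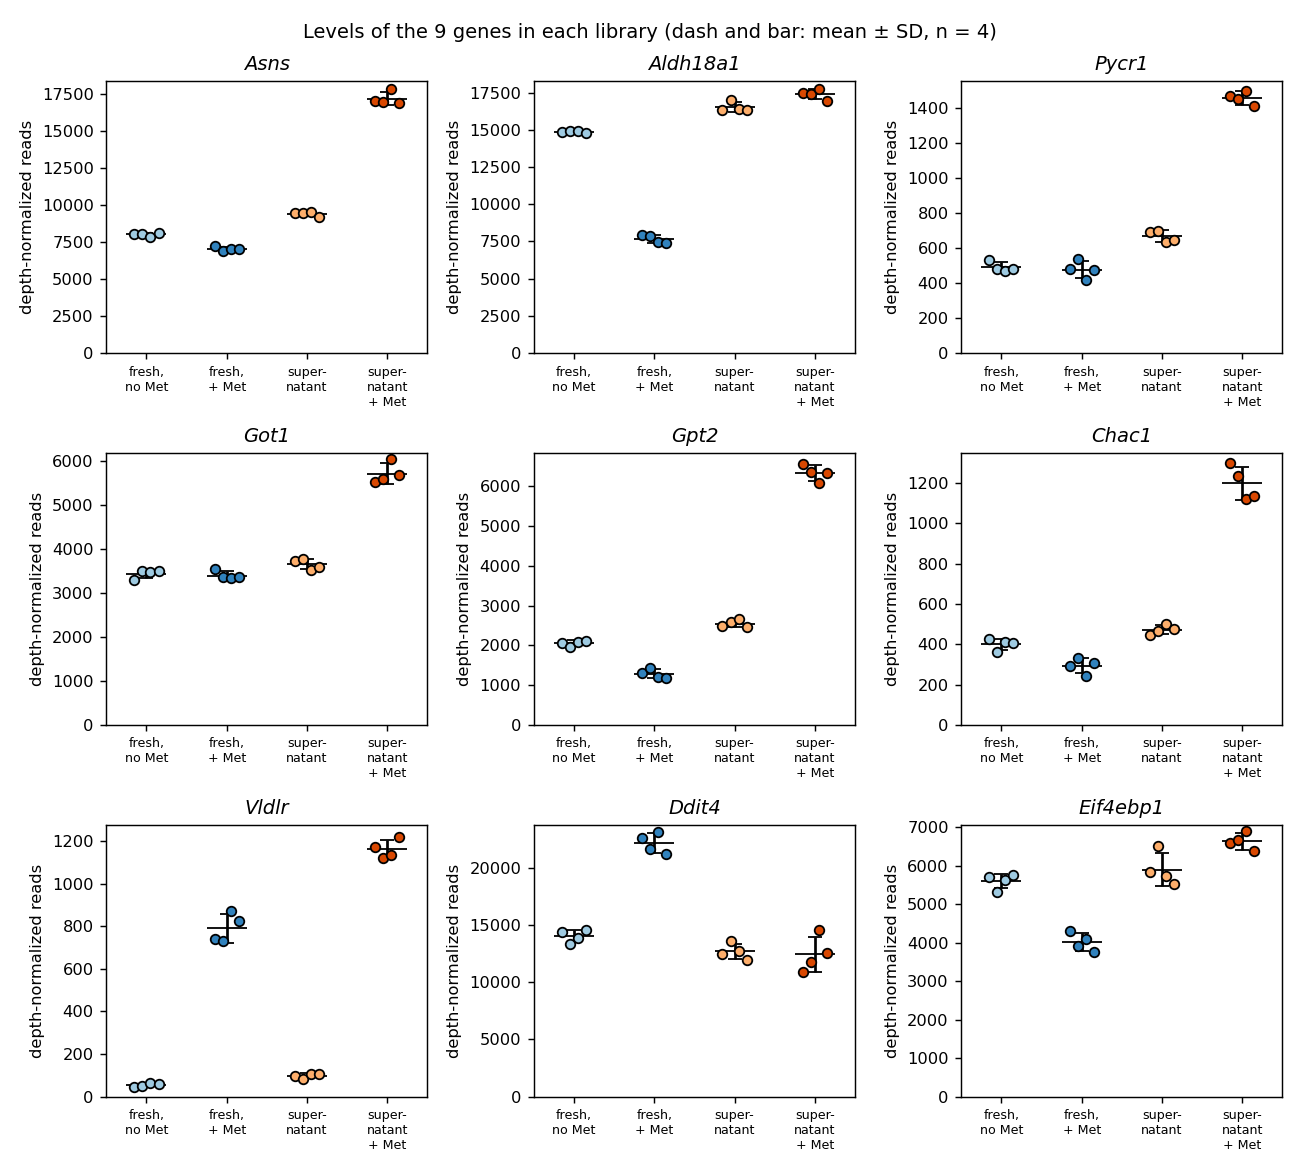
Depth-normalized reads of each gene in each of the 16 libraries, by medium, with the mean and SD of 4 libraries. In 6 panels the points of supplemented supernatant lie above all others, in the Aldh18a1 and Eif4ebp1 panels complete fresh medium is the low group, and in the Ddit4 panel it is the high group.

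Asns encodes asparagine synthetase, which makes asparagine from aspartate and glutamine. Its level was 8070, 8069, 7849 and 8125 reads in methionine-free fresh medium, 7237, 6902, 7040 and 7046 in complete fresh medium, 9498, 9473, 9535 and 9176 in supernatant, and 17050, 16985, 17856 and 16911 in supplemented supernatant. The groups did not overlap and supplemented supernatant stood far above the rest. Asns was 2.44-fold higher there than in complete fresh medium (log2 1.29, SE 0.027, adjusted p = 4.37e-28). Methionine-free fresh medium exceeded complete fresh medium by only 0.19 (adjusted p = 1.72e-07), and supernatant exceeded it by 0.42 (adjusted p = 1.08e-15).

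Got1, the cytosolic aspartate aminotransferase that interconverts aspartate and oxaloacetate, supplies or uses the substrate of asparagine synthetase. Its level was 3281, 3504, 3467 and 3502 reads in methionine-free fresh medium, 3531, 3349, 3340 and 3349 in complete fresh medium, 3720, 3768, 3529 and 3592 in supernatant, and 5526, 5584, 6043 and 5688 in supplemented supernatant. Both fresh media overlapped and supernatant sat just above them, with 1 of its libraries inside the range of complete fresh medium. Only supplemented supernatant stood clear, 1.68-fold above complete fresh medium (log2 0.75, SE 0.034, adjusted p = 4.79e-19). The difference between both fresh media was 0.019 (95% interval -0.05 to 0.089, adjusted p = 0.599) and did not pass the test, and its direction depended on the processing. It became 0.18 (adjusted p = 8.4e-06) with reads rescaled by library totals and -0.12 in FPKM (adjusted p = 0.357), where it was called lower with the replicate number as a block (adjusted p = 0.048). Supernatant exceeded methionine-free fresh medium by 0.087 (adjusted p = 0.0563), which was not called.

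The mitochondrial aspartate aminotransferase Got2 followed methionine instead, at 9065 ± 255 reads (SD, n = 4) in methionine-free fresh medium, 13193 ± 335 in complete fresh medium, 8905 ± 158 in supernatant and 12359 ± 609 in supplemented supernatant. The log2 ratio of Got1 to Got2 was higher by 0.85 in supplemented supernatant than in complete fresh medium, by 0.17 than in supernatant, and by 0.56 in methionine-free than in complete fresh medium. Each of these differences had an exact permutation p of 0.0286, the smallest that 70 arrangements of 4 against 4 libraries can give, and an adjusted p of 0.033 over the 15 ratio tests made. The difference of 0.17 became 0.085 in FPKM and was not called there (exact permutation, adjusted p = 0.0714). Asrgl1, an asparagine-hydrolysing enzyme, also followed methionine and was higher in supplemented supernatant than in supernatant by 0.45 (adjusted p = 1.27e-12) and lower in methionine-free than in complete fresh medium by a log2 difference of -0.40 (adjusted p = 1.65e-11). Aspg, another asparaginase gene, was listed at 0 FPKM in every library and was not tested.

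Proline is made from glutamate by the Aldh18a1 product (pyrroline-5-carboxylate synthase) and then by pyrroline-5-carboxylate reductases, of which Pycr1 encodes a mitochondrial form. The level of Aldh18a1 was 14854, 14913, 14948 and 14812 reads in methionine-free fresh medium, 7967, 7856, 7433 and 7428 in complete fresh medium, 16346, 17000, 16430 and 16333 in supernatant, and 17462, 17400, 17765 and 16974 in supplemented supernatant. Complete fresh medium was the low group and the other 3 were close together, with supernatant and supplemented supernatant overlapping. Aldh18a1 was 2.27-fold higher in supplemented supernatant than in complete fresh medium (log2 1.18, SE 0.028, adjusted p = 8.01e-27) and 1.94-fold higher in methionine-free fresh medium (log2 0.96, adjusted p = 1.63e-25). Its rise from supernatant to supplemented supernatant was 0.074 (adjusted p = 0.0146), and its direction depended on the scaling, with -0.058 (adjusted p = 0.0503) after rescaling by library totals and -0.15 (adjusted p = 1.35e-05) after quantile normalization. Against methionine-free fresh medium it was higher by 0.23 (adjusted p = 6.12e-09), or -0.03 (adjusted p = 0.302) after quantile normalization.

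Pycr1 did not share this pattern. Its level was 534, 479, 468 and 479 reads in methionine-free fresh medium, 481, 538, 416 and 473 in complete fresh medium, 694, 699, 634 and 648 in supernatant, and 1472, 1450, 1501 and 1410 in supplemented supernatant. Both fresh media overlapped, supernatant was above them, and supplemented supernatant was above all. Pycr1 was 3.07-fold higher in supplemented supernatant than in complete fresh medium (log2 1.62, SE 0.063, adjusted p = 7.08e-21) and 2.18-fold higher than in supernatant (log2 1.12, adjusted p = 1.75e-17). Both fresh media differed by 0.043 (adjusted p = 0.525), which was not called, became 0.20 (adjusted p = 0.00402) after rescaling by library totals, and had the opposite sign in FPKM and without replicate 2 of complete fresh medium (-0.021).

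Pycrl, a gene for another reductase of this step, was higher in supplemented supernatant than in complete fresh medium by 0.17 (adjusted p = 0.00508). Of the genes for proline breakdown and ornithine use, Aldh4a1 was lower in supplemented supernatant than in complete fresh medium by a log2 difference of -0.35 (adjusted p = 1.37e-05) and Oat by -0.24 (adjusted p = 4.23e-07). Prodh, proline dehydrogenase, was at 67.9 ± 16.5 reads in complete fresh medium and 92.7 ± 17.6 in supplemented supernatant, a difference of 0.46 that was not called (adjusted p = 0.0561). Prodh was higher in supplemented supernatant than in supernatant by 1.82 (adjusted p = 1.56e-09). In methionine-free fresh medium it was lower than in complete fresh medium by a log2 difference of -1.39 (adjusted p = 3.15e-07).

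Gpt2 encodes the mitochondrial alanine aminotransferase, which makes alanine from pyruvate and glutamate. Its level was 2059, 1961, 2088 and 2116 reads in methionine-free fresh medium, 1308, 1427, 1214 and 1182 in complete fresh medium, 2484, 2592, 2657 and 2451 in supernatant, and 6575, 6364, 6095 and 6345 in supplemented supernatant. The 4 groups did not overlap and formed an ordered series from complete fresh medium to supplemented supernatant. Gpt2 was 4.95-fold higher in supplemented supernatant than in complete fresh medium (log2 2.31, SE 0.044, adjusted p = 3.71e-29), the largest such fold in the set. It was also higher by 0.68 in methionine-free fresh medium (adjusted p = 7.37e-16) and by 0.99 in supernatant (adjusted p = 2.57e-20).

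The cytosolic alanine aminotransferase Gpt behaved differently, at 122 ± 5.34 reads (SD, n = 4) in methionine-free fresh medium, 256 ± 22.7 in complete fresh medium, 100 ± 16.2 in supernatant and 242 ± 26.6 in supplemented supernatant. The ratio of Gpt2 to Gpt was higher by 2.39 on the log2 scale in supplemented supernatant than in complete fresh medium and by 1.74 in methionine-free than in complete fresh medium (exact permutation p = 0.0286 for each, adjusted 0.033, n = 4 against 4). Between supplemented supernatant and supernatant the ratio differed by 0.045 (exact permutation p = 0.8, adjusted 0.8, n = 4 against 4). There Gpt2 rose by 1.32 and Gpt by 1.27.

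Chac1 encodes a gamma-glutamylcyclotransferase that degrades glutathione. Its level was 426, 360, 409 and 404 reads in methionine-free fresh medium, 292, 330, 244 and 305 in complete fresh medium, 446, 466, 498 and 476 in supernatant, and 1297, 1235, 1123 and 1135 in supplemented supernatant. The groups did not overlap, with supplemented supernatant well above the rest and complete fresh medium lowest. Chac1 was 4.10-fold higher in supplemented supernatant than in complete fresh medium (log2 2.04, SE 0.075, adjusted p = 1.81e-21) and 2.53-fold higher than in supernatant (log2 1.34, adjusted p = 1.92e-17). Its smaller difference of 0.24 between supernatant and methionine-free fresh medium (adjusted p = 0.0154) was lost in edgeR (adjusted p = 0.0615) and DESeq2 (adjusted p = 0.0537) and when replicate 1 of methionine-free fresh medium or replicate 2 of supernatant was left out.

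Its paralog Chac2 was at 222 ± 13.2 reads (SD, n = 4), 324 ± 7.78, 290 ± 10.2 and 255 ± 21.5 in methionine-free fresh medium, complete fresh medium, supernatant and supplemented supernatant. Chac2 was thus lower in supplemented supernatant than in complete fresh medium (log2 -0.35, adjusted p = 0.000229) while Chac1 was higher. The log2 ratio of Chac1 to Chac2 was higher there by 2.38, and higher by 1.53 than in supernatant (exact permutation p = 0.0286 for each, adjusted 0.033, n = 4 against 4), though the latter, at 1.56 in FPKM, was not called there (adjusted p = 0.0714). Among the gamma-glutamyl transferases, which act on glutathione outside the cell, Ggt1 (-0.55, adjusted p = 2.4e-05), Ggt5 (-0.76, adjusted p = 0.00546) and Ggt7 (-0.69, adjusted p = 6.63e-09) were lower in supplemented supernatant than in complete fresh medium. Ggct, another gamma-glutamylcyclotransferase, differed by 0.18 (adjusted p = 0.0697) and was not called. Oplah, the 5-oxoprolinase that acts on the product of these cyclotransferases, peaked in supernatant instead, at 280 ± 37.2 reads against 48.4 ± 5.61 in complete fresh medium and 83.0 ± 14.8 in supplemented supernatant.

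Vldlr, the very low density lipoprotein receptor, takes up lipoproteins, and its level differed most between media with and without added methionine. Its level was 43.0, 51.4, 61.9 and 59.1 reads in methionine-free fresh medium, 738, 730, 872 and 823 in complete fresh medium, 96.0, 82.1, 107 and 106 in supernatant, and 1173, 1120, 1134 and 1218 in supplemented supernatant. The 4 groups did not overlap, and both media without added methionine lay far below both media with it. Vldlr was 14.5-fold lower in methionine-free than in complete fresh medium (log2 -3.86, SE 0.099, adjusted p = 5.27e-27) and 8.04-fold lower in supernatant (log2 -3.01, adjusted p = 5.48e-24). In supplemented supernatant it was 11.8-fold higher than in supernatant (log2 3.57, adjusted p = 8.56e-26) and 1.47-fold above complete fresh medium (log2 0.56, adjusted p = 9.81e-06). In FPKM this last difference was 0.50 and missed the threshold (adjusted p = 0.0768), while a fit with the replicate number as a block called it (adjusted p = 0.00223). The low levels rest on few reads, and the pseudocount makes the folds slightly conservative.

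Other genes of the receptor family did not all move the same way. Lrp8, the apolipoprotein E receptor 2, was at 743 ± 34.4 reads (SD, n = 4) in methionine-free fresh medium, 2225 ± 119 in complete fresh medium, 900 ± 76.5 in supernatant and 2831 ± 59.1 in supplemented supernatant, with supplemented supernatant highest as for Vldlr. Lrp1, a large endocytic receptor, ran the other way, at 889 ± 60.0, 97.1 ± 16.8, 688 ± 37.5 and 43.6 ± 3.52 reads in the same order.

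Ddit4, also called REDD1, restrains the growth kinase complex mTORC1 through the TSC proteins. Its level was 14366, 13356, 13814 and 14508 reads in methionine-free fresh medium, 22595, 21655, 23138 and 21183 in complete fresh medium, 12459, 13558, 12759 and 11944 in supernatant, and 10890, 11717, 14515 and 12553 in supplemented supernatant. Complete fresh medium was the high group, and the other 3 overlapped one with another, with the widest spread in supplemented supernatant. Ddit4 was 1.79-fold lower in supplemented supernatant than in complete fresh medium (log2 -0.84, SE 0.051, adjusted p = 1.02e-15), 1.75-fold lower in supernatant (log2 -0.80, adjusted p = 4.95e-16) and 1.58-fold lower in methionine-free fresh medium (log2 -0.66, adjusted p = 9.17e-14). Supplemented supernatant and supernatant differed by -0.037 (95% interval -0.14 to 0.067, adjusted p = 0.504). That difference turned to 0.024 (adjusted p = 0.654) without replicate 0 of supplemented supernatant and was called lower, at -0.11 (adjusted p = 0.0128), without its replicate 2. The call of -0.14 between supernatant and methionine-free fresh medium (adjusted p = 0.0329) was lost when replicate 0, 2 or 3 of either medium was left out.

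Eif4ebp1 encodes 4E-BP1, which binds the cap-binding protein eIF4E and blocks translation until mTORC1 phosphorylates it. Its level was 5702, 5331, 5630 and 5751 reads in methionine-free fresh medium, 4302, 3905, 4104 and 3758 in complete fresh medium, 5833, 6504, 5742 and 5520 in supernatant, and 6594, 6658, 6911 and 6373 in supplemented supernatant. Complete fresh medium was the low group, and supernatant overlapped both methionine-free fresh medium and supplemented supernatant. Eif4ebp1 was 1.65-fold higher in supplemented supernatant than in complete fresh medium (log2 0.72, SE 0.041, adjusted p = 2.17e-16) and 1.40-fold higher in methionine-free fresh medium (log2 0.48, adjusted p = 1.38e-12). The rise from supernatant to supplemented supernatant was 0.17 (adjusted p = 0.000346), and it fell to 0.04 (adjusted p = 0.366) with reads rescaled by library totals. In FPKM this rise was 0.27 (adjusted p = 0.308, or 0.0238 with the replicate number as a block). Without the block, Eif4ebp1 was called in FPKM only between supplemented supernatant and complete fresh medium (0.71, adjusted p = 0.0299). Methionine-free against complete fresh medium gave 0.28 there (adjusted p = 0.274, or 0.0185 with the block).

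The relatives of both mTORC1-linked genes moved on their own courses. Ddit4l, the paralog of Ddit4, was at 281 ± 33.9 reads (SD, n = 4) in methionine-free fresh medium, 13.8 ± 4.66 in complete fresh medium, 183 ± 10.4 in supernatant and 9.29 ± 2.44 in supplemented supernatant. The log2 ratio of Ddit4 to Ddit4l differed by -4.97 between methionine-free and complete fresh medium and by 4.15 between supplemented supernatant and supernatant (exact permutation p = 0.0286 for each, adjusted 0.033, n = 4 against 4). Between supplemented supernatant and complete fresh medium it differed by -0.35 (exact permutation p = 0.314, adjusted 0.336, n = 4 against 4). Eif4ebp2, the close relative of Eif4ebp1, stayed between a mean of 4362 ± 146 reads in supplemented supernatant and 4910 ± 261 in methionine-free fresh medium. The log2 ratio of Eif4ebp1 to Eif4ebp2 was higher by 0.87 in supplemented supernatant and by 0.45 in methionine-free fresh medium than in complete fresh medium, and by 0.21 in supplemented supernatant than in supernatant (exact permutation p = 0.0286 for each, adjusted 0.033, n = 4 against 4). The last of these was 0.26 in FPKM and was not called there (exact permutation, adjusted p = 0.0989). Eif4ebp3 was at 516 ± 26.9 reads in complete fresh medium and 494 ± 24.8 in supplemented supernatant, a difference of -0.062 that was not called (adjusted p = 0.454). Eif4e, the target of the binding proteins, was higher in supplemented supernatant than in complete fresh medium by 0.23 (adjusted p = 1.73e-07). Sesn2, an ATF4-responsive mTORC1 inhibitor, was higher by 1.74 (adjusted p = 1.93e-25), while Tsc1 (-0.19, adjusted p = 3.35e-05) and Tsc2 (-0.12, adjusted p = 0.00157) were lower. Sesn2 was not highest in supplemented supernatant, at 3272 ± 72.8 reads against 4738 ± 247 in methionine-free fresh medium and 4225 ± 205 in supernatant.

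**Figure D3:**
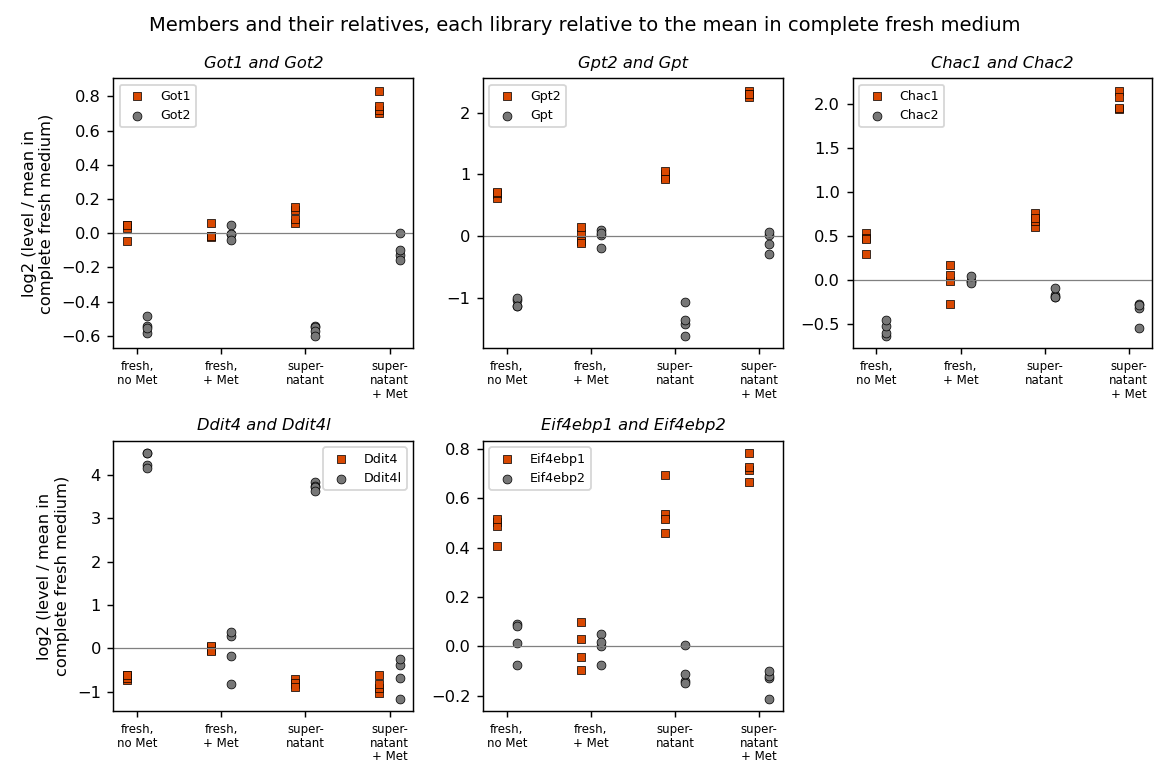
Each panel shows 1 gene of the set (squares) and 1 relative (circles) in each library, as log2 of the level over the mean in complete fresh medium. Got1, Gpt2 and Chac1 lie above their relatives in the 3 media other than complete fresh medium, and Ddit4 and Ddit4l part where methionine was not added.

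Most genes tested were called in most of the comparisons, so each count of the 9 genes stands beside the share of all genes called. The comparisons share libraries, so their counts are given side by side and are not independent. In supplemented supernatant against complete fresh medium, 8 genes were higher (32.5% of all genes tested) and Ddit4 was lower (32.5%), and 5 genes (Asns, Aldh18a1, Pycr1, Gpt2 and Chac1) were higher by at least 2-fold, as were 2.51% of all genes. The median log2 fold change of the 9 was 1.18 there, beside -0.0033 over all genes tested. In supplemented supernatant against supernatant, 8 were higher (41.8%) and 0 were lower (41.8%) in limma, with 4 (Pycr1, Gpt2, Chac1 and Vldlr) higher by at least 2-fold, against 11.0% of all genes. At an unadjusted p below 0.05 limma had 0 of the 9 lower as well, and edgeR and DESeq2 called 0 lower. Ddit4 was called lower there after rescaling by library totals, and Ddit4 and Aldh18a1 after quantile normalization. Against methionine-free fresh medium, supplemented supernatant had 8 higher (42.1%) and 1 lower (42.2%).

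Methionine-free fresh medium had 5 of the genes higher than complete fresh medium (43.3% of all genes) and 2 lower (42.3%), with a median of 0.19 beside 0.0092. The 5 were Asns, Aldh18a1, Gpt2, Chac1 and Eif4ebp1, and the 2 were Vldlr and Ddit4. Supernatant against complete fresh medium had 7 higher (43.0%) and the same 2 lower (42.5%), since Pycr1 and Got1 were called there as well. The Got1 difference of 0.11 (adjusted p = 0.00477) was 0.0097 in FPKM and was not called there (adjusted p = 0.952, or 0.878 with the replicate block). Supernatant against methionine-free fresh medium, the pair without added methionine, had 6 higher (14.0%) and 1 lower (12.9%), and the 6 differences ran from 0.15 in Aldh18a1 to 0.85 in Vldlr. In the FPKM table limma called 0 genes of the set in that comparison and 32 of all genes, while 4 of the set were higher at an unadjusted p below 0.05 and 5 were called higher with the replicate number as a block. Complete fresh medium was lower than each of the other 3 media for 5 genes, Asns, Aldh18a1, Gpt2, Chac1 and Eif4ebp1 (20.4% of all genes), and higher than each for Ddit4 (20.2%).

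The effect of methionine differed between supernatant and fresh medium for 8 of the 9 genes in the depth-normalized reads. In FPKM the difference was called for 6, or 8 with the replicate block. The difference, the log2 effect of methionine in supernatant minus that in fresh medium, was called higher for 7 genes (27.6% of all genes) and lower for Ddit4 (25.0%). Gpt2 fell by 0.68 with methionine in fresh medium and rose by 1.32 in supernatant, a difference of 2.00 (SE 0.062, adjusted p = 6.99e-23). Chac1 fell by 0.45 and rose by 1.34 (difference 1.80, adjusted p = 1.26e-15), and Asns fell by 0.19 and rose by 0.87 (difference 1.05, adjusted p = 5.83e-21). In these 3 genes the sign of the methionine effect was opposite in the 2 media. In FPKM the lower level with methionine in fresh medium was not called for Chac1 (adjusted p = 0.352, or 0.0646 with the replicate block), and for Asns it was called only with the block (adjusted p = 0.183 without it and 0.0109 with it).

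Aldh18a1 fell by 0.96 with methionine in fresh medium and changed by 0.074 in supernatant, a difference of 1.03 (adjusted p = 1.9e-20). Eif4ebp1 fell by 0.48 and rose by 0.17 (difference 0.65, adjusted p = 3.55e-11). In FPKM the Eif4ebp1 difference was 0.54 and was not called (adjusted p = 0.38, or 0.00872 with the replicate block). For Pycr1 the effect was -0.043 (95% interval -0.17 to 0.085) in fresh medium and 1.12 in supernatant (difference 1.17, adjusted p = 6.37e-13). For Got1 it was -0.019 in fresh medium and 0.64 in supernatant (difference 0.66, adjusted p = 2.18e-13). The remaining genes differed from these. Ddit4 rose by 0.66 with methionine in fresh medium and differed by -0.037 in supernatant (difference -0.70, adjusted p = 8.78e-10). In FPKM the Ddit4 difference was -0.75 and was not called (adjusted p = 0.251, or 0.00164 with the replicate block). Vldlr rose strongly in fresh medium and in supernatant, by 3.86 and 3.57. Its difference of -0.30 (95% interval -0.58 to -0.011) was not called (adjusted p = 0.0752). The Vldlr difference was called with the replicate number as a block (adjusted p = 0.0456), after quantile normalization (-0.36, adjusted p = 0.0413) and without replicate 2 or 3 of methionine-free fresh medium or replicate 1 of supernatant, and it ran from -0.38 to -0.19 as each library was left out.

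**Figure D4:**
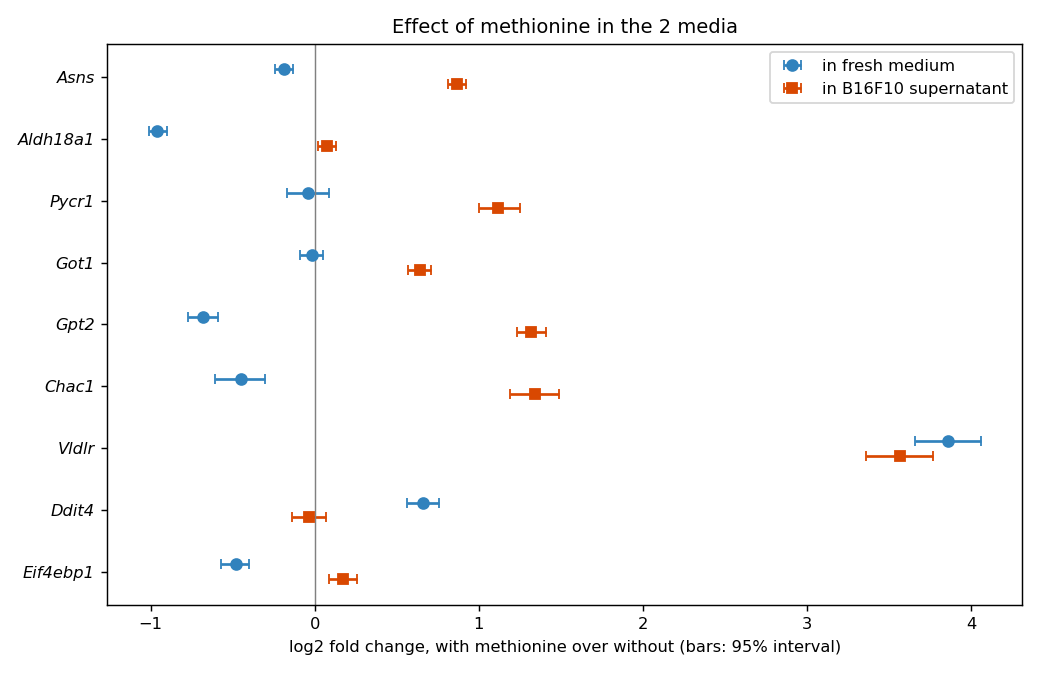
Log2 fold change with methionine over without it, in fresh medium (circles) and in supernatant (squares), with 95% intervals from limma. In 7 genes the square lies to the right of the circle, in Ddit4 to the left, and in Vldlr both lie above 3.

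The genes listed as ATF4 pathway regulators were mostly lowest in complete fresh medium, and most were lower in supplemented supernatant than in supernatant. The list is not limited to genes upstream of ATF4. Of 15 ATF4 pathway regulators, 14 were higher (43.3% of all genes) and 1 lower (42.3%) in methionine-free than in complete fresh medium, with a median of 0.84. In supplemented supernatant against supernatant, 2 were higher (41.8% of all genes), 11 lower (41.8%) and 2 not called, with a median of -0.29. Atf4 itself was at 13323 ± 332 reads (SD, n = 4) in complete fresh medium and at 22246 ± 585, 25000 ± 203 and 24407 ± 650 in methionine-free fresh medium, supernatant and supplemented supernatant. It differed by -0.035 (adjusted p = 0.235) between both supernatant media. There Asns, Gpt2, Chac1 and Pycr1 differed by 0.87 to 1.34, Got1 by 0.64 and Vldlr by 3.57. Aldh18a1 differed by 0.074, Eif4ebp1 by 0.17 and Ddit4 by -0.037. Only 1 regulator, Nupr1, was higher in supplemented supernatant than in each of the other media, against the 8 genes of the set. The share of all genes was 12.5%.

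Against complete fresh medium, the regulators with the highest fold changes in supplemented supernatant were Nupr1, a stress-induced chromatin protein (3.52), Atf5, a relative of ATF4 (2.58), and Trib3, a pseudokinase that feeds back on ATF4 (2.49). The lowest were the eIF2 kinase genes Eif2ak3 (-0.65), Eif2ak2 (-0.34) and Eif2ak4 (-0.24). In methionine-free fresh medium the highest were Atf5 (3.25), Nupr1 (2.61) and Cebpb (2.56), and the lowest called were Eif2ak4 (-0.63), Eif2ak1 (0.15) and Eif2ak2 (0.24). Ddit3, the stress factor CHOP, was at 3733 ± 94.0 reads (SD, n = 4) in methionine-free fresh medium, 796 ± 40.3 in complete fresh medium, 3313 ± 93.6 in supernatant and 2859 ± 128 in supplemented supernatant, and it was lower by a log2 difference of -0.21 in supplemented supernatant than in supernatant (adjusted p = 9.63e-06).

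The other ATF4 target genes, for serine and one-carbon synthesis, amino acid transport and tRNA charging, were mostly highest in supplemented supernatant. Of 36 listed, 34 passed the filter, and Fgf21 and Gdf15 did not. Against complete fresh medium 32 were higher (32.5% of all genes), 0 lower (32.5%) and 2 not called in limma, with a median of 0.90. Cbs and Vegfa were the genes not called. At an unadjusted p below 0.05 limma also had 0 lower, as had edgeR and DESeq2 after adjustment. Of the 34, 28 were higher in supplemented supernatant than in each of the other 3 media, against 12.5% of all genes. In methionine-free against complete fresh medium they divided much as all genes did. There 17 were higher (43.3% of all genes), 14 lower (42.3%) and 3 not called, with a median of 0.089. The difference between the methionine effects was positive and called in 33 of 34 (27.6% of all genes), Vegfa being the exception at -0.23.

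Cth, the cystathionine gamma-lyase of the transsulfuration pathway, had the highest fold change of these genes over complete fresh medium (3.70) and rose from 54.2 ± 4.02 reads (SD, n = 4) in supernatant to 1637 ± 85.0 in supplemented supernatant. Aldh1l2, a mitochondrial folate enzyme, followed at 3.65, and Slc7a11, the cystine transporter, at 2.93. The lowest called were Mars, a methionyl-tRNA synthetase (0.54), Slc38a2, a neutral amino acid transporter (0.58), and Stc2, a secreted glycoprotein (0.62). In methionine-free fresh medium Cbs (2.40), Slc3a2 (1.18) and Yars (1.07) were highest, and Cth (-1.99), Vegfa (-1.31) and Stc2 (-0.68) were lowest. Against this list, Gpt2 at 2.31 and Chac1 at 2.04 lay in its upper range and Vldlr at 0.56 in its lower range.

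**Figure D5:**
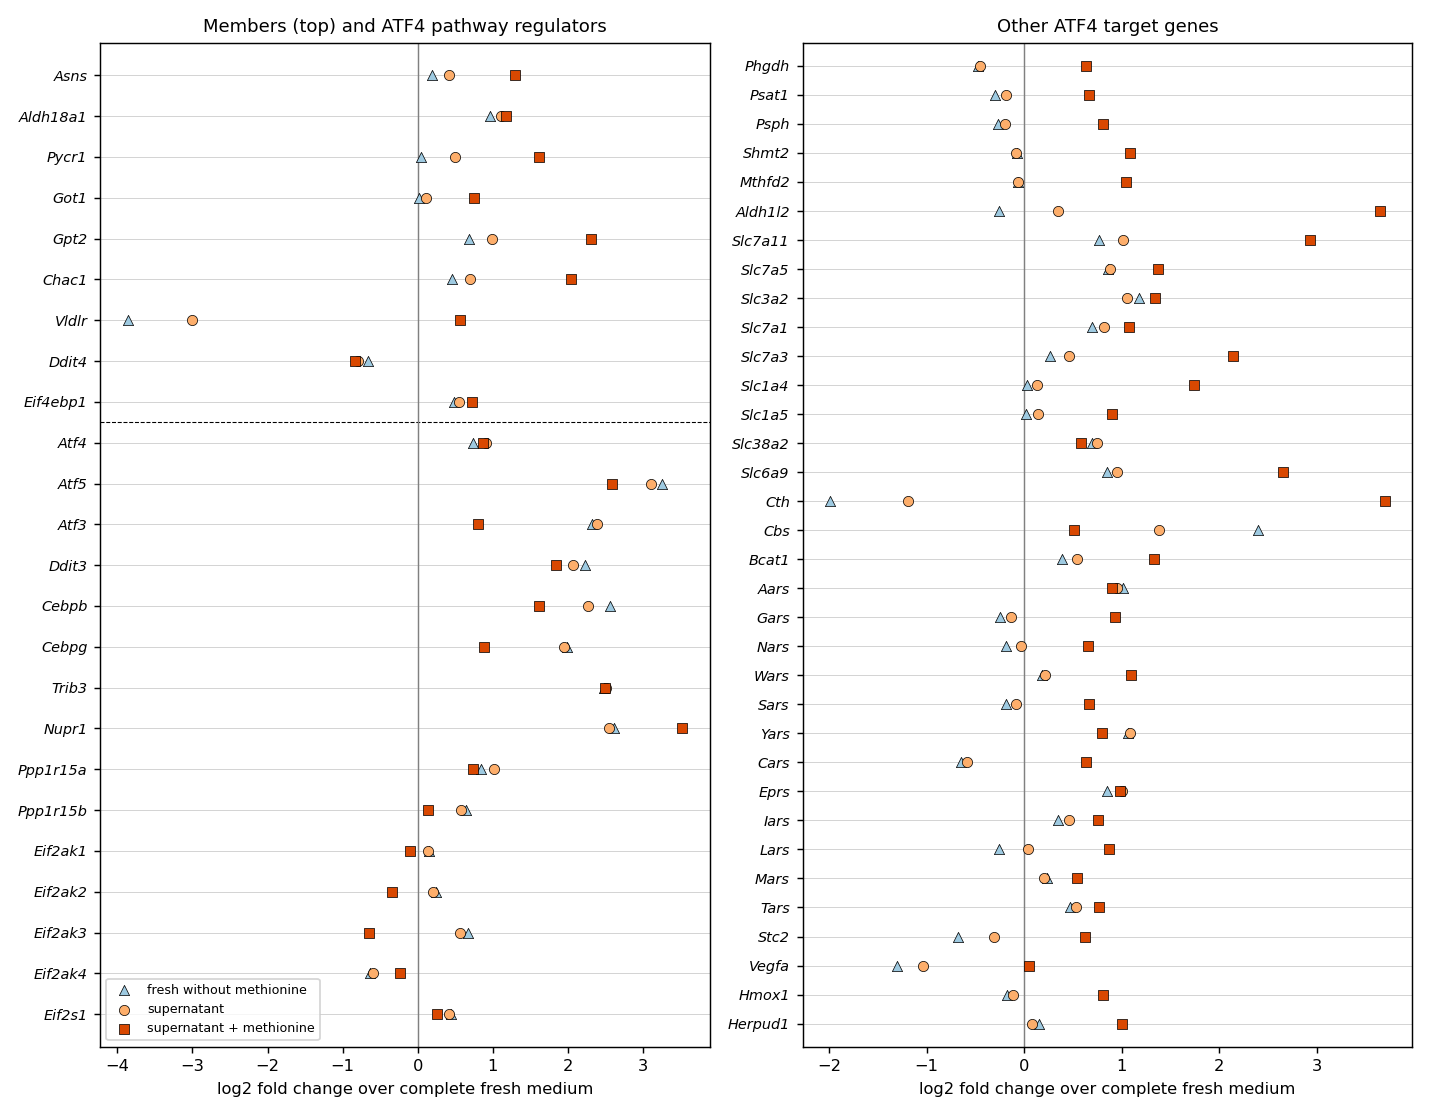
Log2 fold change over complete fresh medium of the 9 genes and the 15 regulators (left) and of the 34 other ATF4 targets (right), with triangles for methionine-free fresh medium, circles for supernatant and squares for supplemented supernatant. On the right most squares lie apart from and above the other symbols, while for most regulators the squares lie at or below them.

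Across the 16 libraries the 9 genes fell into several patterns. Pairwise Pearson r on the log2 scale, a description over libraries that share their media, was 0.93 to 0.99 among Asns, Pycr1, Got1, Gpt2 and Chac1. Aldh18a1 and Eif4ebp1 had an r of 0.96 with each other, and Aldh18a1 an r of -0.96 with Ddit4. Vldlr had an r of -0.35 to 0.59 with the others. By mean level, complete fresh medium, methionine-free fresh medium, supernatant and supplemented supernatant stood in ascending order for Asns, Aldh18a1, Pycr1, Got1, Gpt2, Chac1 and Eif4ebp1. Of the neighbours in that order, both fresh media did not differ beyond their spread for Pycr1 and Got1, and methionine-free fresh medium and supernatant did not for Eif4ebp1. For Got1 these latter media did not overlap, although the difference was not called. The libraries of supernatant and supplemented supernatant overlapped for Aldh18a1 and Eif4ebp1. Vldlr ran from methionine-free fresh medium through supernatant and complete fresh medium to supplemented supernatant, and Ddit4 ran from supplemented supernatant, supernatant and methionine-free fresh medium, which overlapped, up to complete fresh medium. The ratio of the highest to the lowest mean was 21.6 for Vldlr, 4.95 for Gpt2, 4.09 for Chac1, 3.06 for Pycr1, 2.44 for Asns, 2.27 for Aldh18a1, 1.78 for Ddit4, 1.68 for Got1 and 1.65 for Eif4ebp1.

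For each gene the 2 most alike among 9501 other genes that averaged 100 reads or more are named by Pearson r over the 16 libraries. Asns was most like Aqp9 (0.9972), an aquaglyceroporin, and Slc39a6 (0.9932), a zinc transporter. Gpt2 was most like Bcat1 (0.9946), the cytosolic branched-chain aminotransferase, and Slc6a9 (0.9909), a glycine transporter, and Chac1 was most like Aqp9 (0.9866) and Bcat1 (0.9863). Got1 was most like Slc1a5 (0.9903), a glutamine transporter, and Clic4 (0.9898), and Pycr1 was most like Enah (0.9876) and Pde4dip (0.9848). Bcat1, Slc6a9 and Slc1a5 are themselves on the list of other ATF4 targets. Aldh18a1 was most like Dennd2d (0.9964) and Cyb5r1 (0.9952), and Eif4ebp1 was most like Sdr39u1 (0.9847) and Sqstm1 (0.9836), the autophagy receptor p62. Vldlr was most like Tfrc (0.9956), the transferrin receptor, and Eef1a1 (0.9955), a translation elongation factor, and 1188 of the candidates had an r above 0.95 with it. For Ddit4 the number above 0.95 was 11, led by Atp10d (0.9642) and Hk2 (0.9623), a hexokinase of glycolysis.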

How the data were processed

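RNA of 16 libraries was analysed. Per the submitters' processing notes, Cuffdiff 2.2.1, Cufflinks, Bowtie2 2.2.1, TopHat2 2.0.13 and FastQC 0.11.3 were used with the builds GRCm38 and mm10, in roles that are not stated. The counting tool, annotation and strand are not given in the sources used here. The authors deposited a depth-normalized signal per gene and library for 17159 genes, and an FPKM table for 23107 genes, which scales fragments to transcript length. From the values, 100% of the deposited signals are whole multiples of 1 factor per library, within 0.001 of a read. The factor was taken as the smallest nonzero value of the library. In 1 library it was close to 1, so the check could not show that its values came from whole reads. Without known strand, antisense and overlapping transcripts cannot be told apart, and paralogs may share reads.

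The 12469 genes averaging 10 or more were fitted as log2(value + 1) with 4 group means in limma 3.58.1 (R 4.3.3, trended prior variance), with two-sided tests adjusted by Benjamini-Hochberg over all genes tested. The method was tested on simulated data. FPKM was fitted as log2(FPKM + 0.1) for genes averaging 0.5 or more. Alternatives were a pseudocount of 5, no filter, rescaling by total reads, quantile normalization, the FPKM table, a replicate block, leaving out each library, and edgeR 4.0.16 and DESeq2 1.42.0 on whole reads of 15 libraries, since reads of the remaining library could not be checked as whole. Ratios of a gene to its relative were tested by two-sided exact permutation, a test added after the data were seen. The members and lists were chosen with earlier results of these data known. Named were all 9 genes and their partners (2 relatives are not reported here), the 3 highest and 3 lowest called regulators and other targets in 2 comparisons, Atf4 and Ddit3, and the 2 genes most like each member. The replicate numbers are not stated to pair libraries. Residuals of same-numbered libraries correlated at -0.07 to 0.07 over 24 pairs, so no pairing was used.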

Additional observations from a re-analysis of the deposited data

Results flagged for a closer look

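In 36 groups of 4 libraries, 4 held a library whose gap to its nearest neighbour was large against the group's range by Dixon's test. Chance alone gives such a gap in about 1 of 20 groups. The gap was 0.853 of the range for Asns in replicate 2 of supplemented supernatant and 0.854 for Aldh18a1 in replicate 1 of supernatant, both the highest library of their group. For Got1 it was 0.833 in replicate 0 of methionine-free fresh medium, the lowest library, and 0.954 in replicate 0 of complete fresh medium, the highest.

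The effect of methionine in supernatant minus that in fresh medium was called for 8 genes in limma on the depth-normalized reads. On the log2 scale it was 2.00 for Gpt2, 1.80 for Chac1, 1.17 for Pycr1, 1.05 for Asns, 1.03 for Aldh18a1, 0.66 for Got1, 0.65 for Eif4ebp1 and -0.70 for Ddit4.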

How the results depend on the processing

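Of 567 values of the 9 genes in 7 comparisons under 9 alternatives, 524 kept their direction and their side of the threshold, 29 lost a call, 7 gained one and 7 changed sign. Of 1008 values with a library left out, 991 kept both, 8 lost a call, 7 gained one and 2 changed sign. Before any rescaling the all-gene median, on the log2 scale, was 0.0092 in methionine-free against complete fresh medium. It was 0.0011 in supernatant against complete fresh medium and -0.0041 in supplemented supernatant against supernatant. After rescaling by library totals these medians were 0.17, 0.15 and -0.14. Aldh18a1 in supplemented supernatant against supernatant was then -0.058, and -0.15 with quantile normalization, which also gave -0.03 against methionine-free fresh medium. In methionine-free against complete fresh medium, FPKM gave -0.062 for Pycr1 and -0.12 for Got1, with or without the replicate block, and Got1 was called lower with it, and Pycr1 ran from -0.021 to 0.1 as libraries were left out. Ddit4 in supplemented supernatant against supernatant ran from -0.11 to 0.024. In FPKM, methionine-free against complete fresh medium had 4 of the 9 genes called, 2 higher, and 6786 genes in all, or 7, 4 and 9255 with the replicate block. FPKM called 6717 genes in supernatant against complete fresh medium (9216 with the block), 6027 in supplemented supernatant against supernatant (8859), 1958 against complete fresh medium (5759) and 6187 against methionine-free fresh medium (9001), where 0 of the 9 were lower with or without the replicate block. For supernatant against methionine-free fresh medium FPKM called 0 of the 9 and 32 genes, or 5 and 1441 with the replicate block, and 0 of the 9 were lower with the block, without the filter, in DESeq2 and in a range of 0 to 1 as libraries were left out. Of the 9 genes, 1 was lower in supplemented supernatant than in supernatant after rescaling by totals, 2 after quantile normalization, and 0 to 1 without each library. The difference between the methionine effects had 2 genes lower with quantile normalization or the replicate block, 1 to 2 without each library and 0 in FPKM, where 750 genes were called, or 1 and 3942 with the block. FPKM left 5 genes called higher in supplemented supernatant than in each of the other 3 media, against the 8 reported, and 8 with the block. The ratio tests kept their direction in FPKM and with a pseudocount of 5, and in FPKM 4 of them lost their call, at an adjusted p of 0.0714 to 0.214 by exact permutation. The cause was not tested. The replicate numbers gave no pairing in the depth-normalized reads, where 5 of 16 libraries were closest to their own number. In FPKM the same correlation was 0.09 to 0.48, so its counts are given with and without the block. Depth limited Vldlr most, at 43.0 to 107 reads without added methionine.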
